A study of Mus musculus with 28 samples.

Results

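The genes described here are tuft cell genes in mouse colon organoids, chosen by name. The 9 genes listed were *Dclk1*, *Pou2f3*, *Trpm5*, *Avil*, *Gfi1b*, *Alox5*, *Alox5ap*, *Ptgs1* and *Sh2d6*, and 7 of them had a row among the 13519 genes counted. *Gfi1b* and *Alox5ap* had no row and were not analysed here. The organoids came from C57BL/6N mice of 4 genotypes that share homozygous *Apc* flox alleles and the *Villin*::CreERT2 transgene, which drives a tamoxifen-inducible Cre from the *Villin* promoter of intestinal epithelium. AC organoids carried these alleles alone, PAC organoids also a heterozygous *Trp53* LSL-R172H allele, BAC organoids also a heterozygous *Braf* floxV600E allele, and BPAC organoids both. Cultures were treated for 24 hours with ethanol (EtOH), which leaves the alleles unrecombined, or with 3.5 µM 4-hydroxytamoxifen (4-HT), which activates Cre, and RNA was taken 3 days later. The 28 bulk RNA-seq samples were those of 14 cultures, duplicates 1 and 2 of each of 7 mice, so that AC (1 mouse by the labels) had 2 samples per treatment and PAC, BAC and BPAC (2 mice each) had 4. The study's methods speak of 2 mice per genotype, so the labels and the methods differ for AC.

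Tuft cells are rare chemosensory cells of the intestinal epithelium. They detect luminal metabolites through a taste-like cascade that ends in the cation channel TRPM5, and they answer with interleukin 25, acetylcholine, leukotrienes and prostaglandins. Their identity depends on the POU-domain factor POU2F3, which binds octamer DNA together with the coactivator POU2AF2, and the kinase DCLK1 is their most used marker in the mouse.

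The totals per sample ran from 20577276 to 40068718 reads counted on genes, with the 4-HT samples of duplicate 1 of BAC and BPAC at 37438687 to 40068718 and all others at or below 30306835. Levels are normalized CPM, counts scaled by library size and by a factor (TMM) that levels the samples' composition. The test was edgeR's quasi-likelihood test over all 13519 genes, with a gene called at a Benjamini-Hochberg adjusted p under 0.01. The duplicates of a donor come from the same mouse, so the p-values measure the spread between samples, which is technical in part. The study's figure legend for these organoids names 2 distinct passages, and the labels do not say whether the duplicate numbers stand for them. The 4-HT samples of duplicate 1 of the PAC donors 290 and 313 both held *Xist* (25.2 and 22.0 CPM) and Y-linked counts (55.0 and 53.5 CPM), whereas the other 3 samples of donor 290 had at most 0.251 CPM of *Xist* and those of donor 313 had no Y-linked counts. These 2 libraries were the closest pair of the series (r = 0.997 across genes), so they stand against their donor labels, and the calls of the 7 genes that rest on them are also given without them. Counts over the 14 cultures include them unless stated.

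Low counts limited the precision. In EtOH samples the median level per kb of exon ran from 1.11 CPM per kb for *Avil* through 0.722 for *Trpm5*, 0.642 for *Sh2d6*, 0.478 for *Dclk1*, 0.418 for *Alox5* and 0.391 for *Ptgs1* to 0.279 for *Pou2f3*. Each of these neighbours overlapped over the 14 samples, and the ranges reached from 0.492 to 1.77 CPM per kb for *Avil* and from 0.0335 to 0.542 for *Pou2f3*. By the mean of the EtOH samples the 7 genes lay between percentile 7.27 (*Pou2f3*) and percentile 22.1 (*Avil*) of all genes counted. Behind these levels stood 67 to 387 reads per EtOH sample for *Dclk1*, and 2 to 42 for *Pou2f3*. Values of a group with 4 samples are given for duplicate 1 of both donors and then for duplicate 2, in the donor order 290 and 313 (PAC), 291 and 286 (BAC) and 287 and 312 (BPAC), and AC values for duplicates 1 and 2 of donor 288. In bulk RNA, fewer tuft cells and less RNA per tuft cell cannot be told apart.

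The start regions of 3 of the genes that fell in the mean 4-HT change are shown because POU2F3 reads the octamer ATGCAAAT and the TCF/LEF factors of the Wnt pathway, which *Apc* restrains, read the core ATCAAAG. RefSeq (GRCm38.p6) gave a start region of 250 bases before to 50 bases after the start for 7 of the 9 genes listed, 5′ to 3′ on the gene's strand, and none for *Pou2f3* or *Alox5ap*. Capitals mark a match to either motif on either strand. *Hpgds*, the prostaglandin D2 synthase of tuft cells, is added from the list of eicosanoid genes described further on.
*Dclk1*, upstream start, chr3:55242114-55242413, plus strand: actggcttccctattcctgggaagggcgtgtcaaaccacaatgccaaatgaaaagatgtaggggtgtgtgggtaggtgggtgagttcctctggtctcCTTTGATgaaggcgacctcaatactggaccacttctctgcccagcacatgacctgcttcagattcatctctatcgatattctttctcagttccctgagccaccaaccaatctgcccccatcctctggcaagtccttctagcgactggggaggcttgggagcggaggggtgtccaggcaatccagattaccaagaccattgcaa
*Dclk1*, start inside the gene, chr3:55461478-55461777, plus strand: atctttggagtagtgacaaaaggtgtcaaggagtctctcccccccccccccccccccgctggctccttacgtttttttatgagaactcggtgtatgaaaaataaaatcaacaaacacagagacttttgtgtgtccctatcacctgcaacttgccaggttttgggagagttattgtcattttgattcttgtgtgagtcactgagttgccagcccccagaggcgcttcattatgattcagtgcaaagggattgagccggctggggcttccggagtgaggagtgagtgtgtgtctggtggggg
*Trpm5*, chr7:143094593-143094892, minus strand: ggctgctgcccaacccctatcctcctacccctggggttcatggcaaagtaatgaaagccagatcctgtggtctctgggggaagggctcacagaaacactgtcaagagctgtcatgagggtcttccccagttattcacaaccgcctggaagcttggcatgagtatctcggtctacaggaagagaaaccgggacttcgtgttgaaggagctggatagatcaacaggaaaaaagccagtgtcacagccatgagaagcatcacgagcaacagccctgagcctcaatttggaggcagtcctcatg
*Sh2d6*, chr6:72519987-72520286, minus strand: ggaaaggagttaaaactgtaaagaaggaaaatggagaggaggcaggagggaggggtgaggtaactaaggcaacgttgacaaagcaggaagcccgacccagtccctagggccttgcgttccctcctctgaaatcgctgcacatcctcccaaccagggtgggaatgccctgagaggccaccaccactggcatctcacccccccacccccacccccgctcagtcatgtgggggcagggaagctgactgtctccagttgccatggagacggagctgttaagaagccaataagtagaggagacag
*Hpgds*, chr6:65144681-65144980, minus strand: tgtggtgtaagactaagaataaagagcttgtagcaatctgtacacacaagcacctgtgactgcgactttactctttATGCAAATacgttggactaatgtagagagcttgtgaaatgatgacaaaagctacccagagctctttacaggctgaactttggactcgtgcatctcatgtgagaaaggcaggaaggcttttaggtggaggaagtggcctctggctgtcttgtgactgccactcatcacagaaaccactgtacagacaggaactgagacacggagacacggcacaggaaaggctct
The upstream *Dclk1* start held 1 TCF/LEF core, read on the minus strand, whose first base lay at -153 from the start. *Hpgds* held 1 octamer at -174, and neither match overlapped another motif searched. No match to either motif was found in these windows for *Trpm5*, *Sh2d6*, *Avil*, *Alox5*, *Ptgs1* or *Gfi1b*. Of 32851 mouse start regions of the same length, 1.74% held the octamer, 3.73% the TCF/LEF core and 13.6% the TATA box letters TATAAA, which none of these windows held. The counts do not separate the 2 *Dclk1* starts.

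Over all 4 genotypes, 4 of the 7 tuft cell genes fell with 4-HT and none rose. *Sh2d6* fell most, 3.31-fold (mean log2 change -1.73 ± 0.27 SE, edgeR adjusted p = 4.01e-06), followed by *Dclk1*, 2.35-fold (-1.23 ± 0.21, adjusted p = 1.66e-05), *Trpm5*, 1.75-fold (-0.81 ± 0.19, adjusted p = 0.000642), and *Alox5*, also 1.75-fold (-0.81 ± 0.27, adjusted p = 0.00990). The factor *Pou2f3* (0.14 ± 0.24, adjusted p = 0.612), *Avil* (-0.14 ± 0.20, adjusted p = 0.538) and *Ptgs1* (-0.28 ± 0.18, adjusted p = 0.156) did not pass. In this comparison 30.6% of all genes passed as lower and 28.8% as higher, so a fall was frequent among all genes. The median log2 change was -0.81 over the 7 genes and -0.02 over all genes. Of 98 combinations of a gene and a culture, 70 were lower with 4-HT than with EtOH in the same culture, and 59 of 84 without the 2 PAC cultures in doubt (*Sh2d6* in 12 of 12 cultures, *Dclk1* in 11 of 12). These combinations share cultures and mice and are not replicates, and the share over all genes was not counted. Without the 2 PAC libraries in doubt, *Sh2d6* (-1.83, adjusted p = 9.92e-06), *Dclk1* (-1.19, adjusted p = 0.000109) and *Trpm5* (-0.81, adjusted p = 0.00192) passed and *Alox5* did not (-0.71, adjusted p = 0.0306). The calls of *Dclk1* and *Sh2d6* held under 32 of 33 other settings and that of *Alox5* under 13 of 33, and without donor 286 *Trpm5* also missed the threshold (adjusted p = 0.0102).

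**Figure D1:**
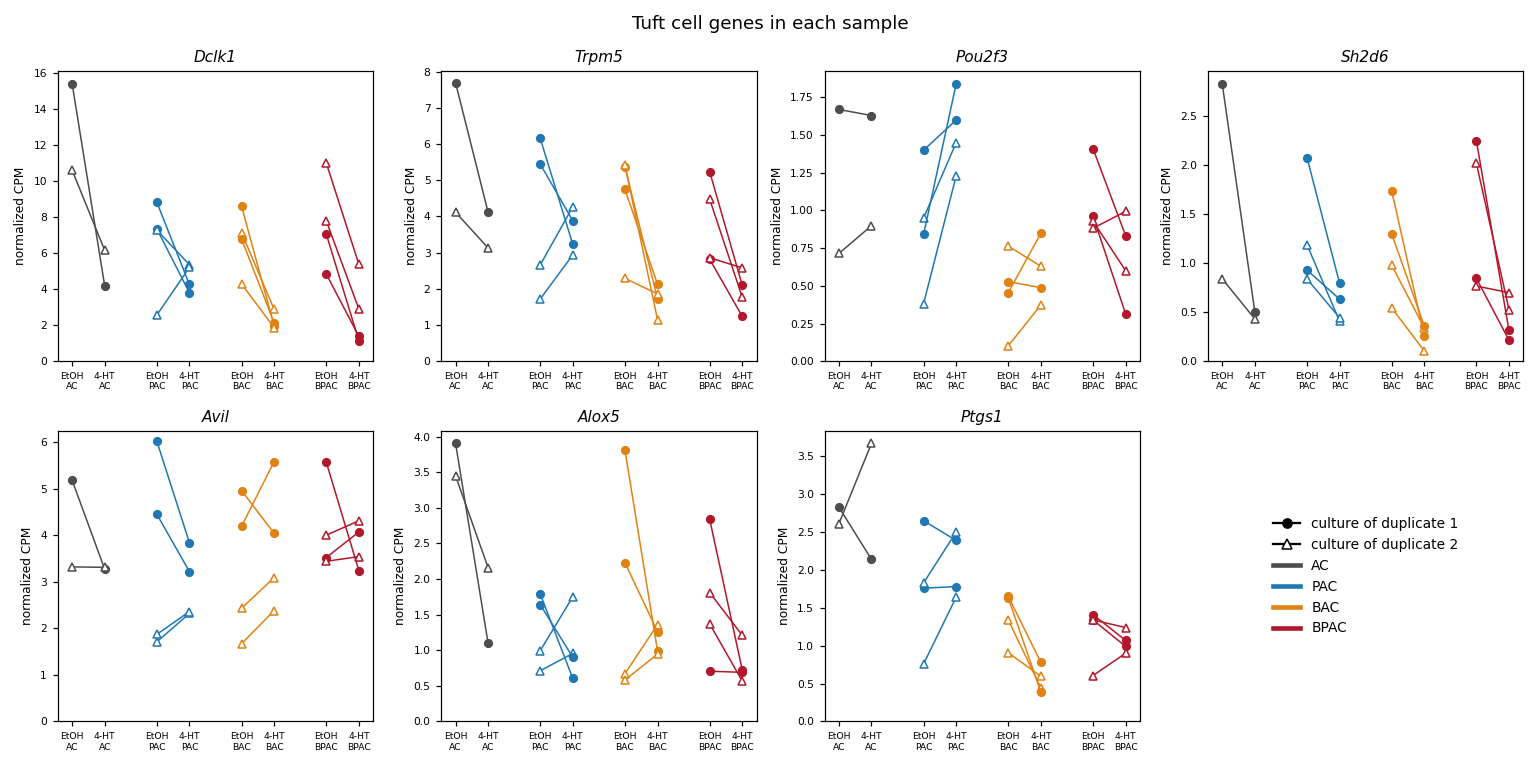
Normalized CPM (y axis) of the 7 genes in each of the 28 samples, by treatment and genotype (x axis), where each line joins the EtOH and the 4-HT sample of 1 culture, filled circles stand for duplicate 1 and open triangles for duplicate 2. *Sh2d6* is lower with 4-HT in 14 of 14 cultures and *Dclk1* in 13 of 14, whereas *Pou2f3* and *Avil* are lower in 6 of 14.

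*Pou2f3* (ENSMUSG00000032015, chr9:43123939-43210369, minus strand, GRCm38), the factor that tuft cells depend on, had the lowest EtOH median per kb of the 7. EtOH samples held 1.67 and 0.715 CPM in AC, 1.40, 0.842, 0.950 and 0.382 in PAC, 0.528, 0.455, 0.763 and 0.103 in BAC, with 0.963, 1.41, 0.929 and 0.882 in BPAC. After 4-HT there were 1.63 and 0.899 in AC, 1.60, 1.84, 1.45 and 1.23 in PAC, 0.488, 0.850, 0.630 and 0.373 in BAC, with 0.314, 0.833, 0.601 and 0.994 in BPAC. Under each treatment the genotypes overlapped in part, but after 4-HT all 4 PAC samples lay above all 8 samples with the *Braf* allele, the 2 PAC libraries in doubt (1.60 and 1.84) included. All 4 PAC cultures had more *Pou2f3* with 4-HT than with EtOH, by 0.187 to 1.53 on the log2 scale, yet the fitted change in PAC did not pass (0.77 ± 0.41, edgeR adjusted p = 0.148, and 0.58 with an adjusted p = 0.466 without the 2 libraries in doubt). In BPAC it was -0.61 ± 0.42 (adjusted p = 0.226). The lowest sample, BAC EtOH of donor 286 and duplicate 2, rested on 2 reads.

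*Trpm5* (ENSMUSG00000009246, chr7:143069153-143094642, minus strand), the calcium-activated cation channel at the end of the taste cascade, fell in BAC and was lower with 4-HT in 12 of 14 cultures. EtOH samples held 7.70 and 4.12 CPM in AC, 6.16, 5.45, 2.66 and 1.72 in PAC, 4.75, 5.38, 2.29 and 5.42 in BAC, with 5.24, 2.82, 4.48 and 2.86 in BPAC. With 4-HT they held 4.12 and 3.13 in AC, 3.23, 3.88, 4.27 and 2.94 in PAC, 2.13, 1.72, 1.86 and 1.15 in BAC, with 2.10, 1.24, 1.77 and 2.58 in BPAC. In BAC and BPAC the treatments did not overlap, whereas in PAC they did, and the PAC samples with the lowest EtOH levels (2.66 and 1.72) were both of duplicate 2. The fall was 2.58-fold in BAC (-1.37 ± 0.35, edgeR adjusted p = 0.00203), and the change in BPAC was -1.00 ± 0.35 (adjusted p = 0.0171). The exons of *Trpm5* share 220 bases with *Tssc4* on the other strand, and since the strandedness of the counting is not given in the sources used here, reads there cannot be assigned to either gene.

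*Dclk1* (ENSMUSG00000027797, chr3:55242364-55539068, plus strand), a microtubule-associated kinase, fell in BAC and in BPAC. EtOH samples held 15.4 and 10.6 CPM in AC, 7.34, 8.82, 7.27 and 2.56 in PAC, 6.79, 8.60, 4.29 and 7.13 in BAC, with 7.06, 4.84, 7.79 and 11.0 in BPAC. In 4-HT samples there were 4.18 and 6.15 in AC, 3.80, 4.26, 5.36 and 5.20 in PAC, 2.13, 1.96, 1.86 and 2.88 in BAC, with 1.14, 1.38, 2.90 and 5.38 in BPAC. The treatments did not overlap in AC and BAC, overlapped in BPAC through 1 4-HT sample (5.38 CPM, donor 312), and overlapped in PAC through the EtOH sample of donor 313 and duplicate 2 (2.56 CPM), the 1 culture of 14 in which *Dclk1* was higher with 4-HT. The fall was 3.03-fold in BAC (-1.60 ± 0.39, edgeR adjusted p = 0.00129) and 2.87-fold in BPAC (-1.52 ± 0.39, adjusted p = 0.00167). In AC, with 2 samples per treatment, a change of -1.33 ± 0.53 did not pass (adjusted p = 0.0854), and in PAC it was -0.48 ± 0.38 (adjusted p = 0.333).

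*Sh2d6* (ENSMUSG00000052631, chr6:72513641-72521707, minus strand), which encodes an SH2-domain adaptor, was the gene with the most uniform direction. EtOH samples held 2.83 and 0.841 CPM in AC, 0.931, 2.08, 1.19 and 0.840 in PAC, 1.30, 1.74, 0.545 and 0.981 in BAC, with 2.25, 0.846, 0.767 and 2.02 in BPAC. After 4-HT they held 0.503 and 0.431 in AC, 0.634, 0.797, 0.409 and 0.445 in PAC, 0.360, 0.260, 0.105 and 0.339 in BAC, with 0.314, 0.214, 0.701 and 0.528 in BPAC. In each genotype all 4-HT samples lay below all EtOH samples. It fell 4.18-fold in BAC (-2.06 ± 0.50, edgeR adjusted p = 0.00126) and 3.37-fold in BPAC (-1.75 ± 0.48, adjusted p = 0.00302). The changes in AC (-1.96 ± 0.67, adjusted p = 0.0450) and PAC (-1.12 ± 0.47, adjusted p = 0.0640) did not pass. The 4-HT values rest on 3 to 23 reads per sample.

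*Avil* (ENSMUSG00000025432, chr10:127000709-127020994, plus strand), which encodes advillin, an actin-binding protein of the apical tuft, passed the test in no genotype. It ran from 1.67 to 6.02 CPM with a median of 3.76 over the EtOH samples and from 2.32 to 5.58 CPM with a median of 3.29 over the 4-HT samples. The 14 samples of each treatment overlapped over most of their range, and the fitted changes lay between -0.37 ± 0.50 in AC and 0.19 ± 0.35 in BAC. In the mean over the genotypes the interval of 2 SE on each side ran from -0.53 to 0.25 on the log2 scale. Its exons share 165 bases with *Tsfm* on the other strand.

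The last of the 7 genes are eicosanoid enzymes. *Alox5* (ENSMUSG00000025701, chr6:116410077-116461178, minus strand), the 5-lipoxygenase that opens leukotriene synthesis, held 3.91 and 3.45 CPM in AC with EtOH, 1.79, 1.64, 0.712 and 0.993 in PAC, 2.23, 3.81, 0.581 and 0.671 in BAC, with 2.84, 0.705, 1.37 and 1.81 in BPAC. With 4-HT there were 1.10 and 2.16 in AC, 0.604, 0.901, 0.955 and 1.75 in PAC, 1.26, 0.991, 0.945 and 1.36 in BAC, with 0.725, 0.690, 0.567 and 1.21 in BPAC. The treatments did not overlap in AC and overlapped in the other 3 genotypes. No genotype passed alone, with changes from -1.18 ± 0.66 in AC (edgeR adjusted p = 0.233) to -0.30 ± 0.49 in PAC (adjusted p = 0.663). Its mean fall lay close to the threshold and was not called with the replicate block, which compares the treatments within each culture (-0.75, adjusted p = 0.0157).

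*Ptgs1* (ENSMUSG00000047250, chr2:36230426-36252272, plus strand), the constitutive cyclooxygenase that makes the prostaglandin precursor, fell in BAC and in no other genotype passed the test. EtOH samples held 2.83 and 2.61 CPM in AC, 1.76, 2.65, 0.760 and 1.83 in PAC, 1.63, 1.65, 0.908 and 1.34 in BAC, with 1.34, 1.41, 0.606 and 1.34 in BPAC. In 4-HT samples the levels were 2.14 and 3.67 in AC, 1.78, 2.39, 1.64 and 2.50 in PAC, 0.386, 0.779, 0.595 and 0.441 in BAC, with 0.991, 1.07, 0.901 and 1.24 in BPAC. After 4-HT the samples thus stood in 3 separate tiers, with BAC lowest, BPAC between, and AC with PAC highest. The fall in BAC was 2.48-fold (-1.31 ± 0.33, edgeR adjusted p = 0.00194). With the counts of each donor summed it did not pass (-1.27, adjusted p = 0.0115). In BPAC the change was -0.15 ± 0.32 (adjusted p = 0.709), in AC 0.09 ± 0.43 (adjusted p = 0.919) and in PAC 0.24 ± 0.31 (adjusted p = 0.566).

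**Figure D2:**
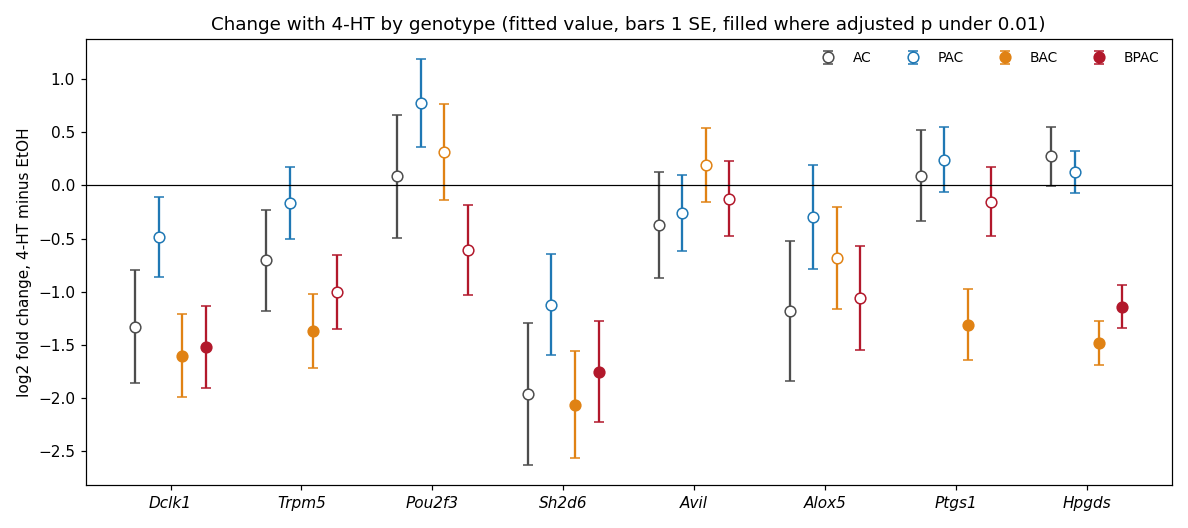
Fitted log2 fold change, 4-HT minus EtOH (y axis), of the 7 tuft cell genes and of *Hpgds* (x axis) in AC, PAC, BAC and BPAC, with bars of 1 SE and filled points where the edgeR adjusted p is under 0.01. *Sh2d6* lies between -1.12 and -2.06, and *Hpgds* lies above 0 in AC and PAC and at -1.48 and -1.14 in BAC and BPAC.

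By genotype, 4 of the 7 genes fell in BAC (*Dclk1*, *Trpm5*, *Ptgs1* and *Sh2d6*), where 21.5% of all genes passed as lower and 20.3% as higher. In BPAC edgeR called 2 as lower (*Dclk1* and *Sh2d6*), beside 23.0% of all genes as lower and 22.0% as higher, and *Trpm5* also passed there in the DESeq2 Wald test (adjusted p = 0.00885) and with edgeR in duplicate 1 alone (adjusted p = 0.00710). In AC and in PAC edgeR called 0 of 7, beside 7.25% and 23.4% of all genes in either direction. Of the 7, 2 had an unadjusted p under 0.05 in AC and 1 in PAC, and limma-voom and the DESeq2 Wald test called 0 in each as well. Without the 2 libraries in doubt the PAC changes were -1.55 for *Sh2d6* (edgeR adjusted p = 0.0911), -0.30 for *Dclk1* and 0.075 for *Alox5*. The median log2 change of the 7 genes was -0.26 in PAC, -0.70 in AC, -1.00 in BPAC and -1.31 in BAC. In BAC the count was 0 without donor 286, 1 without donor 291, 1 without duplicate 1 of donor 286 and 2 without its duplicate 2. In BPAC it was 0 without donor 287 or its duplicate 1, and 1 without donor 312 or its duplicate 2. The share of all genes called in these reduced fits is not given, so the counts cannot be read as particular to the 7 genes.

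The question whether the response depended on the *Braf* allele was put as a difference of changes, BAC with BPAC against AC with PAC. EdgeR called 0 of 7 genes, and limma-voom and DESeq2 also called 0, beside 3.55% of all genes as lower and 3.05% as higher. *Ptgs1* had the lowest unadjusted p, 0.0169 (-0.90 ± 0.35, edgeR adjusted p = 0.0861), the 1 gene of 7 under 0.05. For *Trpm5* the difference was -0.75 ± 0.38 (adjusted p = 0.199), for *Dclk1* -0.65 ± 0.42 (adjusted p = 0.323) and for *Pou2f3* -0.58 ± 0.47 (adjusted p = 0.449), each with an interval of 2 SE that includes 0. For *Sh2d6* (-0.37 ± 0.53), *Alox5* (-0.14 ± 0.53) and *Avil* (0.35 ± 0.39) the SE exceeded the difference. Without the 2 PAC libraries in doubt 0 of 7 passed as well, with *Sh2d6* at -0.15 and *Alox5* at -0.32. BAC was not tested against PAC alone.

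The levels after recombination were compared between the same pairs of genotypes among 4-HT samples. Here 4 of the 7 genes were lower with the *Braf* allele, beside 14.6% of all genes as lower and 15.6% as higher. *Ptgs1* was 3.21-fold lower (-1.68 ± 0.24, edgeR adjusted p = 8.35e-06), *Pou2f3* 2.19-fold (-1.13 ± 0.32, adjusted p = 0.00632), *Dclk1* 2.02-fold (-1.01 ± 0.30, adjusted p = 0.00812) and *Trpm5* 1.98-fold (-0.99 ± 0.27, adjusted p = 0.00469). *Sh2d6* (-0.60 ± 0.40, adjusted p = 0.227), *Alox5* (-0.45 ± 0.38, adjusted p = 0.347) and *Avil* (0.28 ± 0.28, adjusted p = 0.431) did not pass. Without the 2 PAC libraries in doubt *Ptgs1* passed (-1.68, adjusted p = 5.25e-05), while *Dclk1* (-1.10, adjusted p = 0.0104), *Trpm5* (-0.99, adjusted p = 0.0119) and *Pou2f3* (-1.04, adjusted p = 0.0261) did not. With the counts of each donor summed *Pou2f3* did not pass (-1.13, adjusted p = 0.0261). Under 32 other settings the call held in 32 for *Ptgs1*, in 23 for *Trpm5*, in 17 for *Pou2f3* and in 13 for *Dclk1*. The count was 1 without the 2 PAC libraries in doubt, beside 13.7% of all genes as lower and 14.7% as higher. It was also 1 without donor 290 or without donor 287, where the share of all genes called is not given. Before recombination, among EtOH samples, edgeR called 0 of 7 genes (0.0296% of all genes), with 1 unadjusted p under 0.05, that of *Ptgs1* (-0.78 ± 0.25, adjusted p = 0.130).

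The *Trp53* allele gave no call among the tuft cell genes. The difference in the 4-HT change, PAC with BPAC against AC with BAC, passed for 0 of 7 genes in edgeR (0.0148% of all genes), with log2 differences from -0.12 for *Pou2f3* to 0.66 for *Ptgs1* and 0 unadjusted p-values under 0.05. Among EtOH samples 0 of 7 passed (0.0592% of all genes), with 1 unadjusted p under 0.05, that of *Alox5* (-0.82 ± 0.37, edgeR adjusted p = 0.967). Among 4-HT samples 0 of 7 passed (0.0444% of all genes), with 0 unadjusted p-values under 0.05. Limma-voom and DESeq2 called 0 of 7 in each of these comparisons and in the *Braf* comparison of EtOH samples.

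Levels were also compared between duplicate numbers, in a test added after the data were seen. With EtOH 1 of the 7 genes passed, *Avil*, beside 20.3% of all genes called in either direction. The fitted differences of all 7 genes were below 0. *Avil* was lower in duplicate 2 than in duplicate 1 of the same donor in 7 of 7 donors with EtOH (-0.94 ± 0.19, edgeR adjusted p = 0.000641). *Ptgs1* was also lower in 7 of 7 donors, but the difference did not pass (-0.53 ± 0.22, adjusted p = 0.0706). *Alox5* (-0.95 ± 0.31, adjusted p = 0.0230), *Trpm5* (-0.68 ± 0.23, adjusted p = 0.0242) and *Sh2d6* (-0.74 ± 0.32, adjusted p = 0.0776) did not pass either. Nor did *Pou2f3* (-0.57 ± 0.32, adjusted p = 0.176) or *Dclk1* (-0.23 ± 0.25, adjusted p = 0.510). The unadjusted p was under 0.05 for *Avil*, *Alox5*, *Trpm5*, *Ptgs1* and *Sh2d6*. Among 4-HT samples 0 of 7 genes passed (18.7% of all genes), with *Dclk1* at 0.73 ± 0.26 (adjusted p = 0.0381), the 1 gene with an unadjusted p under 0.05.

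The change with 4-HT is also given within each duplicate. *Sh2d6* was lower with 4-HT in 7 of 7 cultures of duplicate 1 (median -1.69) and 7 of 7 of duplicate 2 (-1.36). *Dclk1* was lower in 7 of 7 (-1.76) and 6 of 7 (-1.02), and *Trpm5* in 7 of 7 (-1.13) and 5 of 7 (-0.29). *Alox5* was lower in 7 of 7 cultures of duplicate 1 (-1.46) and in 3 of 7 of duplicate 2, where its median change was 0.39. Of the others, *Ptgs1* was lower in 6 of 7 and 3 of 7, *Avil* in 5 of 7 and 1 of 7, and *Pou2f3* in 4 of 7 and 2 of 7. The difference between the duplicates in the 4-HT change passed for 0 of 7 genes in edgeR (0.0518% of all genes), with unadjusted p under 0.05 for *Alox5* (1.43 ± 0.44, unadjusted p = 0.00361, adjusted p = 0.193), *Dclk1* (0.95 ± 0.36, adjusted p = 0.309) and *Avil* (0.57 ± 0.26, adjusted p = 0.412). In duplicate 2 alone, with 7 cultures, 0 of the 7 genes passed in the mean change, beside 20.1% of all genes as lower and 19.0% as higher, and *Sh2d6* was at -1.27 (adjusted p = 0.0120) and *Dclk1* at -0.78 (adjusted p = 0.0287) and *Trpm5* at -0.44 (adjusted p = 0.168, against -1.07 in duplicate 1 alone), whereas *Alox5* stood at 0.01 (adjusted p = 0.975).

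**Figure D3:**
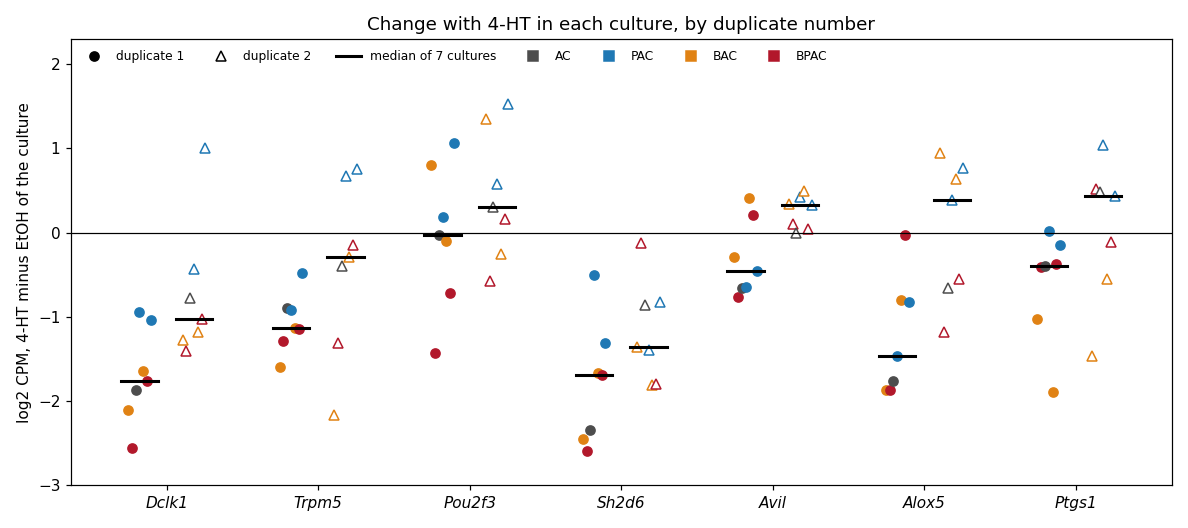
Change in log2 CPM from the EtOH to the 4-HT sample of each of the 14 cultures (y axis) for the 7 tuft cell genes (x axis), with duplicate 1 as filled circles, duplicate 2 as open triangles, colours for the genotypes and a bar at the median of 7 cultures. The median of *Alox5* lies at -1.46 in duplicate 1 and 0.39 in duplicate 2, and that of *Sh2d6* at -1.69 and -1.36.

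Other genes of the tuft cell program were counted from 5 lists with 53 genes, of which 36 had a row. The 17 without a row included *Il25*, *Chat*, *Plcb2* and *Gng13*. In the mean 4-HT change 18 fell, 10 rose and 8 did not pass, with a median of -0.40, beside 30.6% of all genes as lower and 28.8% as higher. In duplicate 1 alone 18 of the 36 fell and 7 rose (29.3% and 28.1% of all genes), whereas in duplicate 2 alone 5 fell and 8 rose (20.1% and 19.0% of all genes). With the counts of each donor summed 15 fell and 8 rose, beside 29.7% of all genes as lower and 28% as higher. Without the 2 PAC libraries in doubt 15 fell and 10 rose, beside 28.5% and 27.2% of all genes. Of the taste and chemosensory genes, 5 of 6 fell and none rose. The taste G protein *Gnat3* fell by 1.59 on the log2 scale (SE 0.36, edgeR adjusted p = 0.000379) and the regulator of G protein signaling *Rgs13* by 1.15 (SE 0.22, adjusted p = 5.55e-05). The inositol trisphosphate receptor *Itpr2* stood at -0.80, the taste receptor subunit *Tas1r3* at -0.67 and *Itpr3* at -0.32. *Itpr3* was lost without the 2 PAC libraries in doubt (adjusted p = 0.0141) and with scaling by library size alone (-0.11, edgeR adjusted p = 0.275).

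Of the 15 genes of SRC-family, SH2 and immune-type signaling, 8 fell and 2 rose, beside the 30.6% of all genes lower and 28.8% higher. The sialic acid receptor *Siglecf* fell by 1.24 (SE 0.25, edgeR adjusted p = 0.000131), *Kctd12* by 1.21, the PI3K regulatory subunit *Pik3r5* by 1.16, the TEC-family kinase *Bmx* by 0.98 and the adaptor *Fyb* by 0.89. *Sh2d7* (-0.88), the exchange factor *Vav1* (-0.84) and the kinase *Lyn* (-0.24) also passed, *Vav1* not with the replicate block (-0.78, adjusted p = 0.0125). Scaled by library size alone, *Lyn* was at -0.032 (edgeR adjusted p = 0.670). The phospholipase *Plcg2* rose by 0.58 and the surface glycoprotein *Cd24a* by 0.76, and neither is particular to tuft cells.

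Of the 5 transcription factors and cofactors, 4 rose and 1 fell. The shares over all genes beside this and the next counts are again 30.6% as lower and 28.8% as higher. The ETS factor *Spib* fell by 1.20 (SE 0.23, edgeR adjusted p = 7.12e-05). *Colca2* (ENSMUSG00000079559), the gene of POU2AF3, another coactivator of POU2F3, rose by 0.72 (SE 0.12, adjusted p = 1.13e-05). It was higher with 4-HT in 14 of 14 cultures, by 0.000846 to 1.39. The list entry was *Pou2af2*, which had no row under that name and was matched to *Colca2* as an alias. *Sox4* rose by 0.74, *Nfe2l3* by 1.10 and *Runx1* by 0.20, factors that other epithelial cells use too. Whether the genes of these lists that fell are particular to tuft cells was not tested. *Colca2* thus rose in the comparison in which *Trpm5*, *Dclk1* and *Sh2d6* fell and *Pou2f3* passed in neither direction. Of the cytokine genes, the interleukin 25 receptor chain *Il17rb* (-0.93) and the interleukin 13 receptor chain *Il13ra1* (-0.40) fell and *Il4ra* rose (0.40). Of the 7 cytoskeletal genes, the actin bundler *Espn* (-1.90) and villin, *Vil1* (-0.73), fell, and the tubulin *Tuba1a* (1.26), *Nebl* (0.95) and the keratin *Krt18* (0.43) rose. *Espn* and *Vil1* are also genes of the colonocyte brush border, and *Vil1* is the gene whose promoter drives Cre here. With the counts of each donor summed *Runx1* (edgeR adjusted p = 0.0216), *Nebl* (adjusted p = 0.0399), *Tas1r3* (adjusted p = 0.0168), *Lyn* (adjusted p = 0.0273) and *Il17rb* (adjusted p = 0.0164) did not pass. *Vav1* and *Il17rb* did not pass without the 2 PAC libraries in doubt (adjusted p = 0.0178 and 0.0119).

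Several of these falls did not pass in duplicate 2 alone, where *Gnat3* was at -0.44 (edgeR adjusted p = 0.486), *Rgs13* at -0.55 (adjusted p = 0.0587), *Spib* at -0.52 (adjusted p = 0.0746), *Sh2d7* at -0.28 (adjusted p = 0.410) and *Vav1* at -0.16 (adjusted p = 0.745), against -2.35 for *Gnat3* and -1.70 each for *Rgs13* and *Spib* in duplicate 1 alone. The difference between the duplicates was not tested for these genes.

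By genotype, 0 of the 36 genes fell and 1 rose in AC, where 7.25% of all genes passed in either direction, and 2 fell and 7 rose in PAC (23.4% of all genes). In BAC 9 fell and 4 rose, beside 21.5% of all genes as lower and 20.3% as higher, and in BPAC 9 fell and 3 rose, beside 23.0% and 22.0%. Without the 2 libraries in doubt 1 fell and 2 rose in PAC, beside 3.74% of all genes as lower and 3.34% as higher. In duplicate 2 alone 1 fell and 3 rose in BAC (10.4% and 10.6% of all genes) and 3 fell and 2 rose in BPAC (11.4% and 10.7%), and summing each donor's counts gave 6 that fell and 5 that rose in BAC (18.8% and 20.7%). In the *Braf* test of the 4-HT change 0 of the 36 passed, beside 3.55% of all genes as lower and 3.05% as higher. In the 4-HT levels, where 14.6% of all genes were lower and 15.6% higher, 12 of the 36 were lower with the *Braf* allele and 1, the phosphatase *Ptpn6*, was higher (0.69 ± 0.13, edgeR adjusted p = 0.000111). With the counts of each donor summed 7 were lower and 1 higher (11.7% and 15.7% of all genes), and in duplicate 2 alone 2 were lower and 0 higher (4.64% and 3.83% of all genes).

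**Figure D4:**
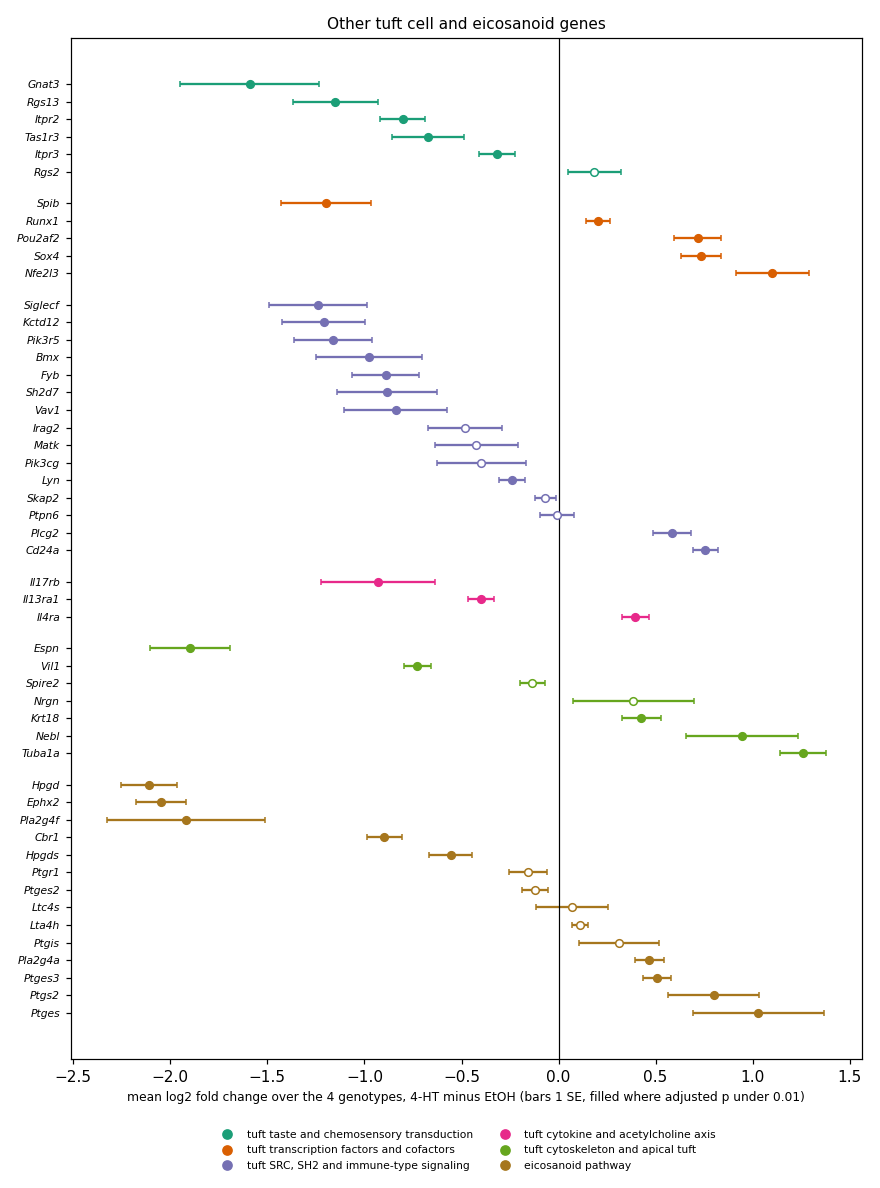
Mean log2 fold change over the 4 genotypes, 4-HT minus EtOH (x axis), of the 36 genes of 5 other tuft cell lists and the 14 eicosanoid genes with a row (y axis), with bars of 1 SE, colours for the lists and filled points where the edgeR adjusted p is under 0.01. Of the 6 taste genes 5 lie left of 0, as do *Siglecf* to *Vav1*, and *Colca2* (labelled *Pou2af2*), *Sox4*, *Nfe2l3* and *Tuba1a* lie on the right.

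In the eicosanoid list, 14 of 18 genes had a row, of which 5 fell and 4 rose in the mean 4-HT change, beside 30.6% of all genes as lower and 28.8% as higher. In duplicate 2 alone 3 fell and 2 rose (20.1% and 19.0% of all genes). *Hpgds* (ENSMUSG00000029919, chr6:65117293-65144908, minus strand), which makes prostaglandin D2 from the product of the cyclooxygenases, was 1 of 3 genes of this list that passed in the *Braf* test of the 4-HT change, all 3 as lower, beside 3.55% of all genes. With EtOH it ran from 7.27 to 14.7 CPM over the 14 samples with no genotype apart from the others. With 4-HT the AC and PAC samples held 17.0, 13.5, 15.2, 14.3, 13.2 and 8.32 CPM, and the BAC and BPAC samples 3.88, 4.27, 3.71, 2.85, 3.63, 5.19, 4.81 and 4.35 CPM. It fell 2.79-fold in BAC (-1.48 ± 0.21, edgeR adjusted p = 1.82e-06) and 2.20-fold in BPAC (-1.14 ± 0.20, adjusted p = 4.21e-05), and did not pass in AC (0.28 ± 0.28, adjusted p = 0.550) or PAC (0.12 ± 0.20, adjusted p = 0.651). The difference between the genotypes itself passed, at -1.51 ± 0.22 (adjusted p = 9.92e-05), and without the 2 PAC libraries in doubt at -1.39 (adjusted p = 0.000398). In duplicate 2 alone it was -1.63 and did not pass (adjusted p = 0.0499), nor did any other gene of the list, beside 0.155% of all genes as lower.

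**Figure D5:**
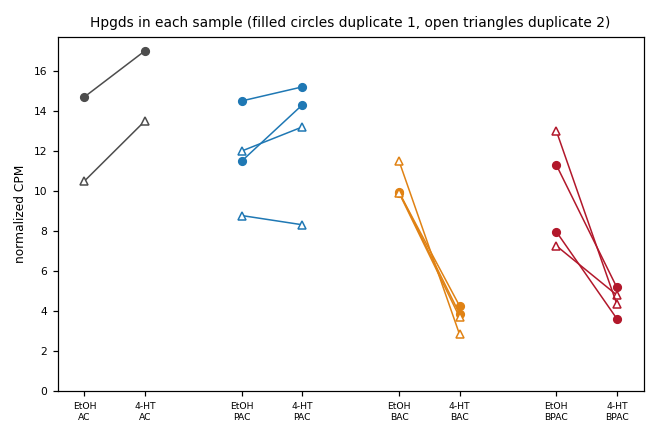
Normalized CPM (y axis) of *Hpgds* in each of the 28 samples by treatment and genotype (x axis), where each line joins the EtOH and the 4-HT sample of 1 culture, with colours for the genotypes. *Hpgds* lies at 2.85 to 5.19 CPM in the 4-HT samples of BAC and BPAC and at 8.32 to 17.0 CPM in those of AC and PAC.

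The prostaglandin dehydrogenase *Hpgd* fell by 2.11 (SE 0.15, edgeR adjusted p = 6.00e-12) and the epoxide hydrolase *Ephx2* by 2.05 (SE 0.13, adjusted p = 1.41e-12), enzymes that break eicosanoids down and that are not particular to tuft cells. Where the *Braf* allele was present the change was lower by 1.09 for *Hpgd* (edgeR adjusted p = 0.00870) and by 1.02 for *Ephx2* (adjusted p = 0.00614), the latter not called without the 2 PAC libraries in doubt (adjusted p = 0.0146). Both lay near the threshold, and under 33 other settings the call held in 13 for *Hpgd*, which with the counts of each donor summed had an adjusted p = 0.0247, in 15 for *Ephx2* and in 32 for *Hpgds*. The phospholipase *Pla2g4f* (-1.92) and *Cbr1* (-0.90) fell as well. The inducible cyclooxygenase *Ptgs2* (0.80 ± 0.24, adjusted p = 0.00442), *Ptges3* (0.51), *Pla2g4a* (0.47) and the prostaglandin E synthase *Ptges* (1.03 ± 0.34, adjusted p = 0.00908) rose, the last not without the PAC libraries in doubt (adjusted p = 0.0369). With the counts of each donor summed *Ptgs2* (adjusted p = 0.0288) and *Ptges* (adjusted p = 0.0340) did not pass. *Ltc4s*, the leukotriene C4 synthase, did not pass (0.07 ± 0.19, adjusted p = 0.758).

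Genes were also ranked by how they varied between samples of the same group. For this, the deviations of log2 CPM from the mean of each of the 8 groups, scaled to their SD, were averaged over the 5 genes with at least 1 CPM on average (*Dclk1*, *Trpm5*, *Avil*, *Alox5* and *Ptgs1*), and Pearson's r with that average was ranked over 12314 other genes in 28 samples. The 28 points share 7 donors and 2 duplicate numbers, and the r values are a description. The first 10 were *Pbp2* (0.830), *Abhd4* (0.818), *Fastkd3* (0.816), *Fez2* (0.812), *Mfsd6l* (0.787), *Lonp2* (0.782), *Spib* (0.778), *Srxn1* (0.770), *Klf6* (0.769) and *Cmah* (0.767). Of the 10, 1 (*Spib*) was on the other tuft cell lists. Over the 36 genes of these lists r ran from -0.428 for *Nebl* to 0.778 for *Spib* with a median of 0.303, beside a median of 0.0422 over the 12314 genes ranked, and *Sh2d7* (0.725), *Matk* (0.695), *Pik3r5* (0.690), *Gnat3* (0.651) and *Rgs13* (0.636) followed *Spib*. In the 14 EtOH samples alone 4 of the 10 genes were shared and 0 of the 10 were on the tuft cell lists, and the median over the 36 was 0.414 beside 0.0707. Each of the 5 genes against the mean of the other 4 gave r from 0.363 for *Ptgs1* to 0.676 for *Alox5*.

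Markers of other cells moved with the same treatment, in the comparison in which 30.6% of all genes passed as lower and 28.8% as higher. All 12 of 12 colonocyte markers fell in the mean 4-HT change, and their summed level went from 23881 to 34449 CPM over the EtOH samples to 5219 to 16601 CPM over the 4-HT samples. Of 9 stem cell markers with a row (10 listed) 8 rose and 1 fell (1248 to 1681 CPM against 1515 to 2026 CPM), and 7 of 7 proliferation markers rose (594 to 796 CPM against 938 to 1527 CPM). Of 10 goblet cell markers 4 fell and 5 rose (2447 to 6066 CPM against 2419 to 3685 CPM), and of 10 enteroendocrine markers with a row (12 listed) 3 fell and 2 rose (171.8 to 1271 CPM against 226.4 to 611.2 CPM). The summed level of the 7 tuft cell genes was 10.2 to 39.6 CPM in EtOH samples and 8.37 to 19.7 CPM in 4-HT samples. Of 16 markers of mast cells, myeloid cells and lymphocytes 4 had a row (13.8 to 23.7 CPM against 13.7 to 50.5 CPM, 1 fell and 2 rose), and of 12 markers of fibroblasts and neurons 4 had a row (7.05 to 19.5 CPM against 6.19 to 11.6 CPM, 1 fell and 1 rose). *Ptprc*, the general marker of blood cells, was among the genes without a row. The part of these markers in the changes of the tuft cell genes was not tested.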

How the data were processed

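Bulk RNA-seq of 28 samples was used as the raw read counts that the authors deposited, 1 whole number per gene and sample, not normalized. The submitters' processing notes name Trimmomatic 0.39, STAR 2.5.2b and the builds GRCm38 and mm10. The counting program, its annotation and its strandedness are not given in the sources used here. Identifiers were matched to symbols with the GENCODE annotation of GRCm38 for 13479 of 13519 genes.

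Scaling was by TMM and testing by edgeR 4.0.16 under R 4.3.3 (quasi-likelihood test, 8 groups of genotype and treatment with 1 spread, Benjamini-Hochberg adjustment over all genes, threshold 0.01). The study names limma without a design matrix, so limma-voom (3.58.1) was an alternative, as was DESeq2 (1.42.0). The SE of a change is its size divided by the square root of F. Changes of a culture are differences in log2 CPM with a prior count of 2, and levels are compared between genes as CPM per kb of exon.

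The EtOH and 4-HT samples of 1 culture carry the same donor and duplicate number and come from the same mouse. Their deviations from the group means correlated across genes (mean r 0.416, 0.245 to 0.532 over 12 cultures), so a fit with the culture as a replicate block was run. For 1 BAC sample (donor 291, 4-HT) the label has no duplicate number, and duplicate 1 was assumed because only duplicate 2 was otherwise present.

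The genes named are the listed tuft cell genes, the genes of 6 other lists past the threshold in the mean 4-HT change or the *Braf* comparison (at most the 5 lowest and 5 highest changes of a list), and the 10 genes most like the members. *Ltc4s*, *Ptpn6* and *Matk* were named after their values were seen. The members and lists were chosen with earlier results of these data known. 1 gene is not reported here, and it is in neither the lists nor the ranking. Depth was 20577276 to 40068718 counts per sample, without molecular identifiers.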

Additional observations from a re-analysis of the deposited data

Results flagged for a closer look

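In groups of 4 samples or cultures, 63 sets of values of the 7 genes were tested for a value far from the others by Dixon's criterion, which marks about 1 in 20 by chance, and 4 were marked. All 4 were in BPAC. *Pou2f3* stood high in the EtOH sample of donor 312 and duplicate 1 (1.41 CPM), and *Ptgs1* stood low in the EtOH sample of donor 287 and duplicate 2 (0.606 CPM). The change of *Trpm5* was smaller in the culture of donor 312 and duplicate 2 (-0.14) than in the other 3, and *Avil* changed most in that of donor 287 and duplicate 1 (-0.77).

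The response to 4-HT differed with the *Braf* allele in edgeR's test for 3 genes of the eicosanoid list, *Hpgds* (-1.51), *Hpgd* (-1.09) and *Ephx2* (-1.02). The calls held under 32, 13 and 15 of 33 other settings, and the last was not called without the 2 PAC libraries in doubt.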

How the results depend on the processing

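Each result was recomputed under up to 33 other settings, and the median log2 change of all genes moved from -0.02 with TMM to 0.19 with library size alone. The replicate block left *Alox5* (mean change -0.75, edgeR adjusted p = 0.0157) and *Vav1* (adjusted p = 0.0125) uncalled and turned the *Braf* difference in change of *Alox5* to 0.066. It changed no other call among 82 of 89 results of single genes. The other 7, the *Braf* comparison of 4-HT levels, lie between cultures and could not be fitted with it. Summing the counts of each donor left 10 of 89 results uncalled, *Ptgs1* in BAC and *Pou2f3* in the *Braf* comparison of 4-HT levels among them. The filter on low counts removed no gene.

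The number of the 7 genes called was 1 in AC at an adjusted p under 0.05 (2275 of all 13519 genes) and in duplicate 1 alone (894), and 1 in PAC in duplicate 1 alone (3968). In duplicate 2 alone it was 0 in BAC (2838 of all genes), 0 in BPAC (2997), 0 in the mean change (5276) and 1 in the *Braf* comparison of 4-HT levels (1145). With all samples thinned to the smallest total it was 1 in BPAC and 2 in the *Braf* comparison of 4-HT levels. The share of all genes called after thinning, or with a culture or donor left out, is not given. The counts under these settings thus cannot be read as particular to the 7 genes. Without the PAC libraries in doubt the number called was 1 in the *Braf* comparison of 4-HT levels, beside 13.7% of all genes as lower and 14.7% as higher. In EtOH samples alone, 0 of the 10 genes most like the members were on the tuft cell lists. Leaving out a culture or donor gave 0 to 4 calls in BAC, 0 to 3 in BPAC, 2 to 4 in the mean change and 1 to 4 in the *Braf* comparison of 4-HT levels.

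Signs that turned were of changes that had not passed the test, except the mean change of *Alox5* (0.010 in duplicate 2 alone), and their cause was not tested. The *Braf* difference in change of *Alox5* was 0.19 with limma-voom, 0.16 in duplicate 1 alone and 0.032 in duplicate 2 alone. With library size alone *Trpm5* was at 0.051 in PAC, *Avil* at 0.095 and *Ptgs1* at 0.056 in BPAC, and *Avil* at 0.064 in the mean. In duplicate 1 alone *Pou2f3* (-0.052) and *Ptgs1* (-0.42) in AC, *Ptgs1* in PAC (-0.067) and *Pou2f3* in the mean (-0.0096) turned. In duplicate 2 alone this held in PAC for *Dclk1* (0.11), *Trpm5* (0.72), *Avil* (0.38) and *Alox5* (0.66), for *Alox5* in BAC (0.88), for *Avil* (0.076) and *Ptgs1* (0.14) in BPAC, and for *Avil* (0.22) and *Ptgs1* (0.049) in the mean. Thinning gave *Pou2f3* in AC -0.016, and leaving out the PAC libraries in doubt gave *Alox5* in PAC 0.075. With a culture or donor left out, the range in AC was -0.035 to 0.33 for *Pou2f3* and -0.40 to 0.49 for *Ptgs1*, and in PAC -0.41 to 0.17 for *Trpm5* and -0.77 to 0.10 for *Alox5*. In BAC it was -0.22 to 1.09 for *Pou2f3*, -0.057 to 0.45 for *Avil* and -1.04 to 0.027 for *Alox5*, in BPAC -0.34 to 0.13 for *Avil*, and for the *Braf* difference in change of *Alox5* -0.44 to 0.22. Where this left AC with 1 culture, the lone sample was assumed to vary like the other groups.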
